A study of Mus musculus with 4 samples.

Results

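The nuclei described here carried the transcripts of Drd2 striatal projection neurons, the GABAergic neurons of the indirect pathway, and came from libraries labelled as cortex. They were selected on raw UMIs (unique molecular identifiers, counted once per captured transcript): at least 1 UMI of Gad1 and Gad2 together, no UMI of Slc17a7, at least 2 UMIs of Rarb, at least 2 UMIs of Drd2, Adora2a and Penk together, and no UMI of Drd1 or Drd3. Of 35694 nuclei, 712 met the rule (1.99%): 193 and 200 in the control libraries and 185 and 134 in the CrT-KO libraries. They are called Drd2 SPN nuclei below.

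The study measured nuclear RNA of the mouse cortex by single-nucleus sequencing in animals that lack the creatine transporter, Slc6a8. CrT-KO animals were males hemizygous for a deletion of exons 5 to 7 of Slc6a8 (CrT-/y), and controls were wild-type male littermates (CrT+/y), all taken at postnatal day 100. Each of the 4 libraries, 2 per genotype, came from the whole right-hemisphere cortex of 1 animal, with 15000 sorted nuclei loaded. The deletion was present in every cell of the animal, so an effect inside these neurons and one that reaches them from elsewhere cannot be told apart.

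Striatal projection neurons use GABA and receive dopamine from the midbrain. Those of the indirect pathway carry the dopamine D2 receptor, which lowers cAMP, and the adenosine receptor encoded by Adora2a, which raises it, and they make enkephalin from the precursor encoded by Penk. Neurons of the direct pathway carry the D1 receptor and make substance P and dynorphin instead. Creatine and creatine kinases buffer ATP in cells whose energy use changes quickly, and Slc6a8 brings creatine into the cell.

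The whole libraries held 8282 to 9295 nuclei and 51507483 to 65240843 UMIs. The summed Drd2 SPN nuclei held 1013641 and 1385627 UMIs in the controls and 1239961 and 809464 in CrT-KO, and no member had fewer than 1767 UMIs. The median per member nucleus was 4808 and 6278 UMIs in the controls against 6289 and 5893 in CrT-KO. Genotypes overlapped, with an SD of 1039 UMIs in the controls and 280 in CrT-KO (n = 2 each). The difference of the means was 548 UMIs (2-sided exact permutation test over 6 assignments of libraries, p = 0.667, where 0.33 is the smallest p the design allows). It turned to -187 UMIs without control replicate 1, the shallowest library in these nuclei. Scrublet marked 40 of the 712 nuclei as doublets (5.62%, against 3.46% of all nuclei), and they were kept. Of 96 barcodes shared between libraries, 3 involved a Drd2 SPN nucleus and 0 joined a pair of them.

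The label was checked against markers that the rule did not use. Rgs9, which shortens dopamine receptor signals in the striatum, had a UMI in 94.2% of members, against 83.6% of Drd1 SPN nuclei, 15.6% of other GABAergic nuclei, 15.1% of excitatory nuclei and 2.47% of oligodendrocyte nuclei. Median depths of these groups were 5750, 6363, 5909, 9618 and 1434 UMIs. Pde10a, the phosphodiesterase abundant in striatal projection neurons, had a UMI in 99.7% of members but also in 94.0% of other GABAergic and 98.9% of excitatory nuclei, and the transcription factor Foxp1 in 99.6% of members, 52.4% of other GABAergic and 87.5% of excitatory nuclei. Ppp1r1b, which encodes DARPP-32, had one in 21.2% of members and in 0.698% of other GABAergic nuclei. After each nucleus was thinned to 2000 UMIs, which kept 710 of the 712, Rgs9 was still seen in 75.9% of members and Ppp1r1b in 5.77%. Gpr6 and Sp9, further markers of these neurons, were seen in 3.51% and 6.04% of members, and Gpr52 had no UMI in them. Other GABAergic nuclei had Gpr6 in 0.164% and Sp9 in 5.71%, so Sp9 did not set the members apart from them. The tissue label names cortex, while these nuclei carried striatal markers, and the cortical interneuron markers summed to 369 to 672 CPM in them (UMIs scaled to 1000000 UMIs of the population in that library), against 10527 to 11270 in other GABAergic nuclei. How striatal nuclei came into the libraries was not tested.

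The comparison populations were cut by similar rules. Drd1 SPN nuclei needed the same GABAergic and Rarb levels, at least 2 Drd1 UMIs and none of Drd2, Adora2a, Penk or Drd3, which left 45 nuclei, and a looser rule of 1 Drd1 UMI, added after the data were seen, left 238. The detection shares above and the levels below use the looser group unless stated. In it the cortical interneuron markers summed to 2059 to 2845 CPM, so it held more of those transcripts than the Drd2 SPN nuclei did. Other GABAergic nuclei (2434) had at least 2 Gad1 and Gad2 UMIs and none of Slc17a7, Rarb, Drd1, Drd2, Adora2a or Drd3.

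Values of the genes that chose the nuclei are a description and were not tested. Drd2 stood at 729 and 577 CPM in the controls and at 587 and 603 in CrT-KO, and Adora2a at 86.8 and 92.4 against 73.4 and 87.7, so both genes overlapped between genotypes. Penk was at 191 and 158 CPM in the controls and at 126 and 143 in CrT-KO, so both CrT-KO libraries lay below both controls. Rarb, a retinoic acid receptor that marks the striatal lineage, was at 2474 and 2062 against 2086 and 2157 CPM. Gad1 and Gad2, the enzymes that make GABA, also overlapped, at 213 and 190 against 204 and 210 CPM and at 291 and 242 against 286 and 305.

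Drd2 was the usual way into the group. It alone met the dopamine-axis requirement in 205 nuclei, with Penk in 211 and with Adora2a in 132, and all 3 genes were seen in 120 nuclei. Nuclei with Penk only (29), with Adora2a and Penk (11) or with Adora2a only (4) were few. The nuclei with all 3 transcripts numbered 35 of 193 and 46 of 200 members in the controls. In CrT-KO they were 23 of 185 and 16 of 134, lower in both libraries in number and as a share of the members.

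At the edge of the Rarb requirement, the 14 members with exactly 2 Rarb UMIs had Rgs9 at 366 and the interneuron marker Kcnc2 at 762 CPM, and the 9 nuclei just outside, with 1 Rarb UMI, had them at 120 and 872. The summed members held Kcnc2 at 106 to 167 CPM. At the edge of the dopamine-axis requirement, the 120 members with exactly 2 UMIs had Rgs9 at 658 CPM and Kcnc2 at 283. The 122 nuclei with 1 such UMI had Rgs9 at 453 and Kcnc2 at 882 CPM. The members near each threshold thus held less Rgs9 than the 811 to 847 CPM of the summed libraries. Other striatal markers did not all fall outside the edges. Grik3 was at 138 CPM inside and 255 outside the Rarb edge, and at 300 and 213 at the dopamine-axis edge. Ppp1r1b was at 29.7 and 0 CPM at the Rarb edge and at 21.4 and 26.5 at the dopamine-axis edge. Foxp1 was lower outside both edges.

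The share of Drd2 SPN nuclei was lower in both CrT-KO libraries than in both controls, a difference that an exact permutation test over 4 libraries cannot bring below p = 0.33. Of all nuclei they were 2.33% (95% exact binomial interval 2.02 to 2.68) and 2.15% (1.87 to 2.47) in the controls and 2.00% (1.72 to 2.30) and 1.51% (1.27 to 1.79) in CrT-KO. The intervals cover counting error only, and that of the first CrT-KO library overlapped both control intervals. The means were 2.24% ± 0.126 and 1.76% ± 0.340 (SD, n = 2 each), a difference of -0.486 percentage points (2-sided exact permutation test, p = 0.33, the smallest the design allows).

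Other denominators gave the same order. Of GABAergic nuclei, the members were 10.9% and 10.2% in the controls and 9.13% and 8.06% in CrT-KO. Of GABAergic nuclei with at least 2 Rarb UMIs they were 27.1% and 28.4% against 23.3% and 22.7%, a difference of -4.81 percentage points (2-sided exact permutation test, p = 0.33). The Rarb nuclei as a whole overlapped between genotypes, at 8.58% and 7.56% of all nuclei in the controls and 8.58% and 6.67% in the CrT-KO libraries (2-sided exact permutation test, p = 0.667). For each Drd1 SPN nucleus of the looser rule there were 3.27 and 3.92 Drd2 SPN nuclei in the controls and 2.89 and 2.09 in CrT-KO. With the stricter Drd1 rule the ratios overlapped, at 24.1 and 16.7 against 16.8 and 9.57. Penk, which helped to choose the nuclei, was itself lower in CrT-KO, and its part in the share was not tested. The share of a dissection that reaches striatal tissue and the number of such neurons in the animal cannot be told apart.

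**Figure D1:**
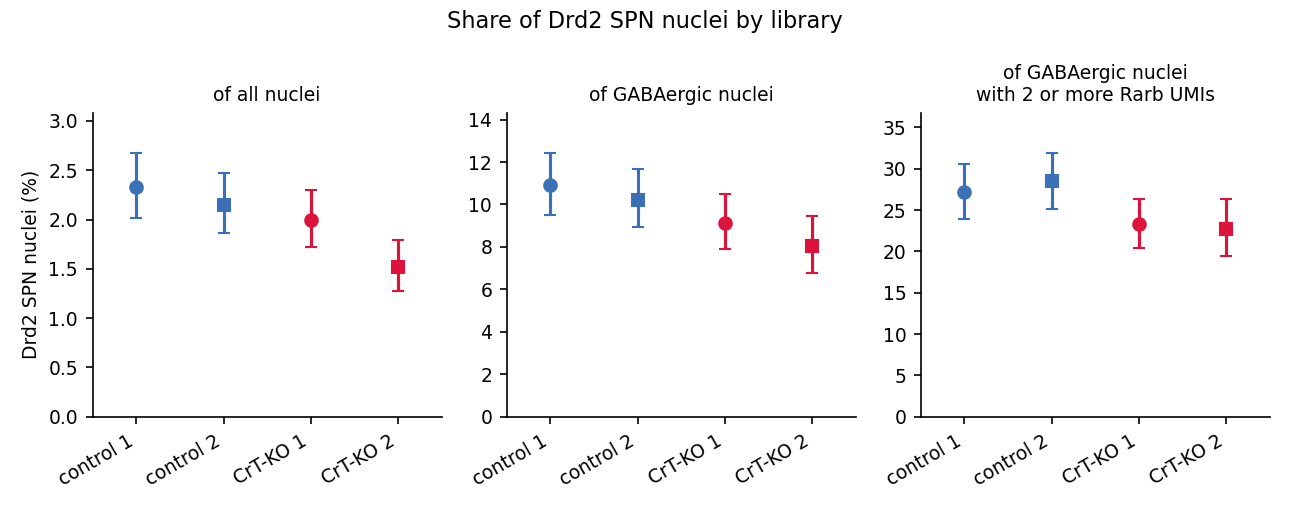
Share of Drd2 SPN nuclei in each library, in percent of all nuclei, of GABAergic nuclei and of GABAergic nuclei with at least 2 Rarb UMIs, with 95% exact binomial intervals. Both CrT-KO libraries lie below both controls in each panel (1.51% and 2.00% against 2.15% and 2.33% of all nuclei).

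Within the members, the marker sums described which striatal neurons they resembled. The 14 markers shared by striatal projection neurons summed to 13420 and 12635 CPM in the controls and 12422 and 12337 in CrT-KO. Markers of Drd1 neurons summed to 22.7 and 19.5 against 21.8 and 21 CPM, with Drd1 at 0 by rule and Slc35d3 at 0. In the Drd1 SPN nuclei they were at 270 to 334 CPM, of which Drd1, the gene that selected those nuclei, made up 171 to 185. Striosome markers (Oprm1, Kremen1, Sema5b and Lypd1) were at 179 and 161 against 147 and 209 CPM, and matrix markers (Epha4, Sv2b, Id4 and Gda) at 639 and 563 against 688 and 639. Genotypes overlapped in both compartment sums. Oprm1, the mu opioid receptor of striosomes, had a UMI in 24.7% of members and Epha4, a matrix marker, in 79.6%.

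Position markers varied between animals. Ventral striatal markers (Crym, Wfs1, Dlk1 and Stard5) summed to 93.7 and 40.4 CPM in the controls and 99.2 and 48.2 in CrT-KO, so 1 library of each genotype stood at about the same higher level. Dorsal markers (Gpr155, Cnr1 and Coch) were at 209 and 232 against 194 and 172 CPM, lower in both CrT-KO libraries. Eccentric projection neuron markers overlapped at 90.8 and 113 against 110 and 66.7 CPM. These sums were not tested as sums, and 0 markers outside the rule genes were called by edgeR or DESeq2, with Gda, Cnr1, Kcnc2, Mobp and St18 among those at an unadjusted edgeR p under 0.05.

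Transcripts of other cell types were present at low levels and some moved with genotype. Cortical interneuron markers were at 439 and 672 CPM in the controls and 369 and 430 in CrT-KO, with Npy at 0. Much of this came from few nuclei: Adarb2 had 131 and 518 UMIs in the controls and 180 and 197 in CrT-KO, of which the top 10 nuclei of each library held 112, 495, 148 and 186. Excitatory neuron markers were at 170 and 172 against 220 and 185 CPM, with Slc17a7 at 0 by rule. Oligodendrocyte markers, at 151 and 248 against 164 and 133 CPM, and astrocyte markers, at 38.5 and 59.9 against 95.2 and 46.9 with Gfap at 0, overlapped. So did microglial markers (22.6 to 44.4 CPM) and those of oligodendrocyte precursors (23.5 to 38.5), while cholinergic markers were at 7.89 and 5.05 against 4.03 and 3.71 CPM and endothelial markers at most 0.722. Their part in the results below was not tested, except where a value without such nuclei is given.

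**Figure D2:**
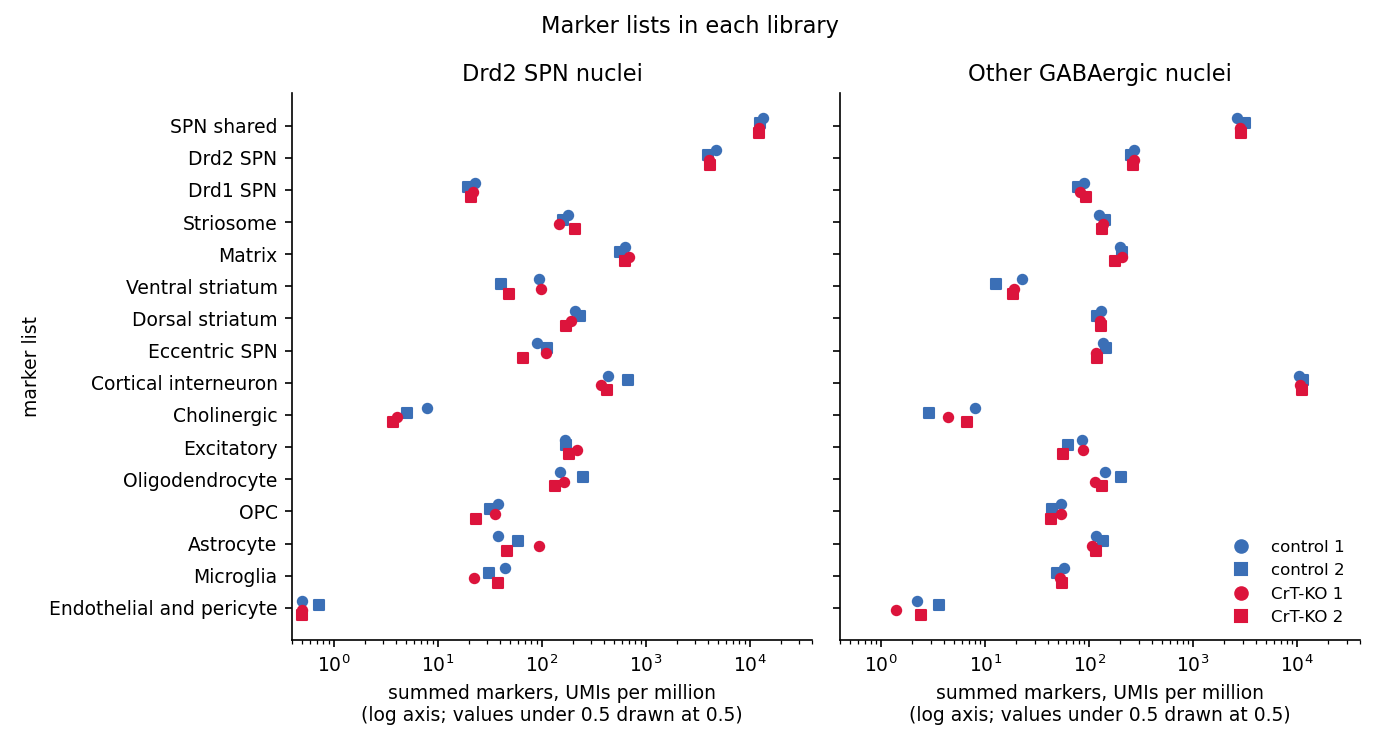
Summed markers of each cell type list in Drd2 SPN nuclei (left) and other GABAergic nuclei (right), in CPM on a log axis, 1 point per library, with values under 0.5 drawn at 0.5. Cortical interneuron markers lie at 369 to 672 in Drd2 SPN nuclei and at 10527 to 11270 in other GABAergic nuclei, and the control and CrT-KO points lie close together in the lists of striatal projection neurons.

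Levels in Drd2 SPN nuclei were set beside those in Drd1 SPN nuclei for genes that the rules did not use. Because the populations were cut from the same nuclei by related genes, the levels are a description with no test. The genes named are those with the highest ratio between the populations in every library, up to 10 in each direction, among 6050 genes with at least 10 UMIs in every Drd2 or every Drd1 sum under the stricter Drd1 rule, with any sum under 3 UMIs set to 3. A gene could pass that filter through the group where it is high, as Grik3, Nt5e and Ebf1 did.

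Genes on the Drd2 side included a kainate receptor and enzymes of adenosine metabolism. Grik3, the kainate receptor subunit, was at 375 and 305 CPM in the control Drd2 SPN nuclei and at 361 and 329 in CrT-KO, and at 13.8 and 25.7 against 40.5 and 44.5 in Drd1 SPN nuclei. It had a UMI in 80.8% of members and in 12.2% of Drd1 SPN nuclei, and in 47.6% and 5.49% after thinning. Adk, adenosine kinase, was at 355 and 382 CPM in the controls and 425 and 549 in CrT-KO, against 57.9 to 96.7 in Drd1 SPN nuclei. Nt5e, which makes adenosine outside the cell, was at 108 to 142 CPM against 22.1 to 29.2, and Oprd1, the delta opioid receptor that binds enkephalin, at 83.9 to 110 against 17.1 to 22.5. The netrin receptor gene Unc5d, the calcium-binding protein gene Necab1 and the sorting receptor gene Sorcs3 also stood higher in every library. Pde4d, a cAMP phosphodiesterase named for its ratio against the 45 Drd1 SPN nuclei, was at 634 to 782 CPM and overlapped the 669 to 787 of the looser group. Ptprm and March1 were the others on this side. In other GABAergic nuclei Grik3 was at 200.1 to 224 CPM, and Unc5d, Pde4d and Ptprm were higher there than in Drd2 SPN nuclei in every library.

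On the Drd1 side, Ebf1, a transcription factor of direct pathway neurons, was at 4.93 and 7.94 CPM in the control Drd2 SPN nuclei and at 4.84 and 0 in CrT-KO, against 187 to 339 in Drd1 SPN nuclei. Cntnap3 was at 9.68 to 14.8 CPM in Drd2 and 167 to 262 in Drd1 SPN nuclei, and Sntg2 at 13.0 to 21.8 against 104 to 226. Foxp2, a transcription factor, was at 249 to 304 CPM against 697 to 1029.8, with a UMI in 50.3% of Drd2 and 78.6% of Drd1 SPN nuclei. Lingo2, Fstl5, Cntnap5c, Ptprz1, Sfxn1 and Wdtc1 were the others on this side. Other GABAergic nuclei held Lingo2 at 2469 to 2676, Fstl5 at 377 to 400.2, Cntnap5c at 570.1 to 748 and Ptprz1 at 216 to 256 CPM, and the looser Drd1 SPN nuclei hold more interneuron transcripts. Wdtc1 in control 2 was at 19.97 CPM in the looser Drd1 and 20.2 in the Drd2 SPN nuclei.

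The targeted gene was measured first. Slc6a8 (ENSMUSG00000019558, chromosome X, 73673150 to 73682502, plus strand, GRCm38) had 10 and 6 UMIs in the control Drd2 SPN nuclei and 2 and 1 in CrT-KO, or 9.87 and 4.33 against 1.61 and 1.24 CPM. Every one of these UMIs sat in a different nucleus. Summed over libraries this was 16 against 3 UMIs, a CrT-KO to control ratio of 0.220 per UMI sequenced (95% counting interval 0.0410 to 0.767). The counts were below the filter of the test, and without the filter the log2 fold change was -2.11 (SE 0.83, adjusted p = 0.820 by edgeR). The whole gene body was counted, exons and introns alike, and where on the gene the remaining UMIs lie was not tested.

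The same order held in better covered groups. Slc6a8 had 93 and 83 UMIs against 19 and 15 in excitatory nuclei, 32 and 31 against 8 and 10 in oligodendrocyte nuclei and 22 and 14 against 11 and 3 in other GABAergic nuclei. The looser Drd1 SPN nuclei had 2 and 0 UMIs in the controls and 0 and 2 in CrT-KO, where a difference was not detectable at this depth.

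Of the 7 creatine genes 3 were tested, with 0 called by edgeR or DESeq2 and 0 at an unadjusted edgeR p under 0.05, and Gatm, Gamt and Ckm were, like Slc6a8, below the filter. Gatm, which makes the creatine precursor, had 6 and 12 UMIs in the controls and 3 and 4 in CrT-KO, lower in both CrT-KO libraries in CPM, and Gamt, which completes the synthesis, had 1 UMI in all. Ckb, the cytosolic brain creatine kinase, had 64 and 60 against 68 and 32 UMIs (-0.10 on the log2 scale, SE 0.24, adjusted p = 0.989 by edgeR). Ckmt1, a mitochondrial creatine kinase whose locus overlaps Strc on the other strand, had 22 and 37 against 30 and 17 UMIs (-0.08, adjusted p = 0.991 by edgeR). Ckmt2, the other mitochondrial form, had 17 and 12 against 24 and 15 UMIs, with both CrT-KO libraries above both controls in CPM (0.65, SE 0.39, adjusted p = 0.936 by edgeR). Ckm had none.

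**Figure D3:**
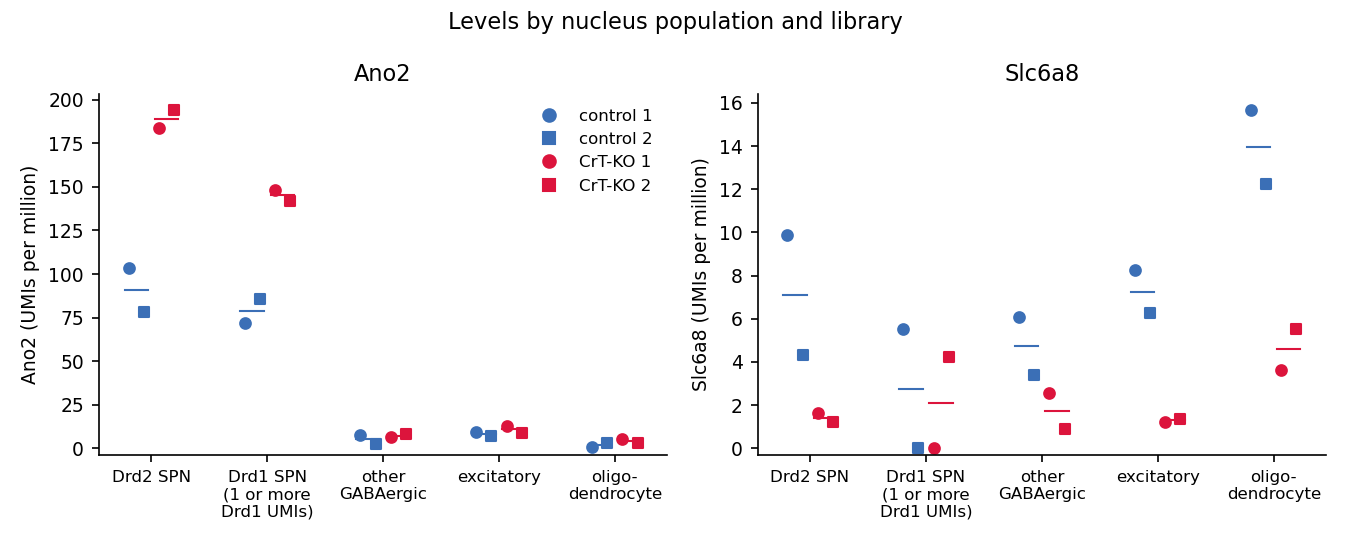
Ano2 and Slc6a8 in CPM in Drd2 SPN nuclei and in the comparison populations, 1 point per library, with a line at the mean of each genotype. Ano2 is at 184 and 194 in the CrT-KO and at 104 and 77.9 in the control Drd2 SPN nuclei, and at under 14 in excitatory, other GABAergic and oligodendrocyte nuclei.

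Between genotypes, 1 of 7416 genes tested in Drd2 SPN nuclei was called at an adjusted p under 0.1 (0.0135%, edgeR quasi-likelihood test on UMI sums per library). An unadjusted p under 0.05 was reached by 379 genes (5.11%). Counted by CPM alone, both CrT-KO libraries lay above both controls in 14.7% of tested genes and below both in 18.9%. The median log2 fold change of all tested genes was 0.00.

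The called gene was Ano2 (ENSMUSG00000038115, chromosome 6, 125690419 to 126040126, plus strand), which encodes a calcium-activated chloride channel of the anoctamin family. It had 105 and 108 UMIs in the control Drd2 SPN nuclei and 228 and 157 in CrT-KO, or 104 and 77.9 against 184 and 194 CPM. Both CrT-KO libraries lay well above both controls, and the means were 90.8 ± 18.1 and 189 ± 7.13 CPM (SD, n = 2 each). The log2 fold change was 1.09 (SE 0.16, adjusted p = 0.0137 by edgeR).

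The rise was spread over nuclei. Ano2 had a UMI in 36.3% and 32.5% of control members and in 56.2% and 53.7% of CrT-KO members. With each nucleus thinned to 2000 UMIs, which left out 1 nucleus of each control library, the shares were 18.2% and 10.6% against 28.6% and 29.9%. The 10 nuclei with the most Ano2 UMIs held 27.6% to 35% of them in each library. DESeq2 also called Ano2. Over 14 settings, the reported one included, its log2 fold change ran from 0.94 to 1.25 with an adjusted p from 1.87e-07 to 0.0622 (edgeR or DESeq2). The exception, added after the data were seen, left out the 321 nuclei that held a UMI of an oligodendrocyte marker. With the 391 nuclei that remained it was 0.89 with an edgeR adjusted p of 0.650, and Car10 was the 1 gene called.

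Ano2 was also measured in the other populations. The looser Drd1 SPN nuclei had 26 and 30 UMIs in the controls and 66 and 67 in CrT-KO, or 71.7 and 85.6 against 148 and 142 CPM (0.88 on the log2 scale, SE 0.25, adjusted p = 0.650 by edgeR). Other GABAergic nuclei had 7.45 and 2.65 CPM in the controls and 6.26 and 8.14 in CrT-KO (0.54, SE 0.41, adjusted p = 0.996 by edgeR). Excitatory nuclei had 9.49 and 7.24 against 13.0 and 8.93 CPM. Oligodendrocyte nuclei had few UMIs, 1 and 7 against 12 and 6, or 0.489 and 2.77 against 5.45 and 3.31 CPM, higher in both CrT-KO libraries. Drd1 SPN nuclei of the stricter rule had 152 and 174 against 258 and 324 CPM (0.84, SE 0.39, adjusted p = 0.9998 by edgeR). The genotype effect on Ano2 was not shown to differ between Drd2 SPN nuclei and other GABAergic nuclei (difference 0.53 on the log2 scale, SE 0.36, adjusted p = 0.965 by edgeR) or Drd1 SPN nuclei of the looser rule (0.22, SE 0.31, adjusted p = 0.998 by edgeR).

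**Figure D4:**
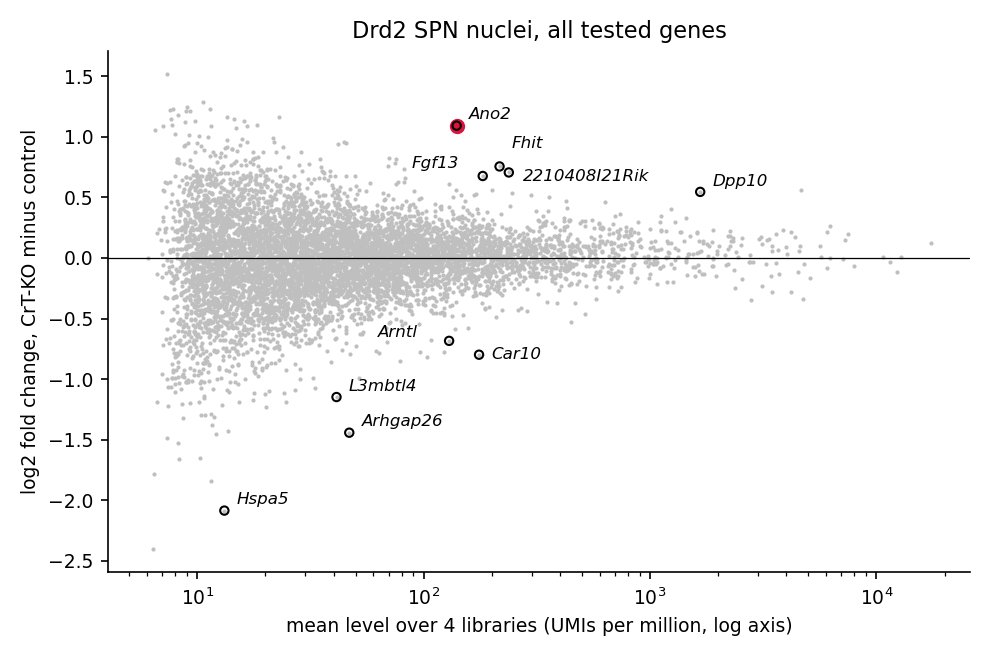
Log2 fold change (CrT-KO minus control) of all 7416 tested genes in Drd2 SPN nuclei against their mean level over 4 libraries, in CPM on a log axis. The filled red point is Ano2, at 1.09 the only gene called, and circles mark the 5 genes of lowest p in each direction.

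The genes next in line did not pass the test and are given as values. Fhit (chromosome 14), which hydrolyses dinucleoside polyphosphates, was at 169 and 158 CPM in the controls and 306 and 232 in CrT-KO (0.76 on the log2 scale, SE 0.15, adjusted p = 0.131 by edgeR). The gene 2210408I21Rik (chromosome 13) was at 196 and 169 against 278 and 308 CPM (0.71, SE 0.14, adjusted p = 0.131 by edgeR). Fgf13, which binds voltage-gated sodium channels, was at 146 and 139 against 246 and 199 CPM (0.68, adjusted p = 0.228 by edgeR). In these 3 genes both CrT-KO libraries lay above both controls. Dpp10, an auxiliary subunit of A-type potassium channels, had 1307 and 1997 against 2413 and 1608 UMIs (0.55, SE 0.13, adjusted p = 0.254 by edgeR), again higher in both CrT-KO libraries in CPM. It was 0.34 with Scrublet doublets removed and 0.33 without nuclei holding oligodendrocyte UMIs. In CPM, 2210408I21Rik was also higher in both CrT-KO libraries in looser Drd1 SPN, other GABAergic, excitatory and oligodendrocyte nuclei. Fhit was so in all of these but other GABAergic nuclei. Dpp10 was so in looser Drd1 SPN and excitatory nuclei and Fgf13 in excitatory nuclei, with overlap in the rest.

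Of the 5 genes of lowest p with lower values in CrT-KO, Hspa5 had the largest log2 difference. This endoplasmic reticulum chaperone, BiP, had 23 and 28 UMIs in the controls and 6 and 4 in CrT-KO, or 22.7 and 20.2 against 4.84 and 4.94 CPM (-2.09 on the log2 scale, SE 0.45, adjusted p = 0.219 by edgeR). Car10, a carbonic anhydrase-related protein, was at 209 and 240 against 142 and 111 CPM (-0.80, adjusted p = 0.131 by edgeR), and 10 nuclei of each library held 52.4% to 71.6% of its UMIs. L3mbtl4 was at 66.1 and 49.1 against 27.4 and 22.2 CPM (-1.15, adjusted p = 0.228 by edgeR). Arntl, the clock transcription factor BMAL1, was at 164 and 157 against 92.7 and 105 CPM (-0.68, adjusted p = 0.254 by edgeR). Without nuclei holding oligodendrocyte UMIs Arntl was at -0.36 and Car10 at -1.52. A record of Arhgap26 had 57 and 114 against 38 and 15 UMIs (-1.44, adjusted p = 0.131 by edgeR) and is uncertain, because it overlaps another record of the gene and Fgf1 on the other strand. That other, more abundant record went the opposite way, at 378 and 407 against 416 and 518 CPM. All 5 genes of lowest p, with Arhgap26 by its first record, were lower in both CrT-KO libraries. Hspa5 and the first Arhgap26 record were also lower in both in other GABAergic, excitatory and oligodendrocyte nuclei, and overlapped in looser Drd1 SPN nuclei. In other GABAergic nuclei Hspa5 was at 19.6 and 19.3 against 11.6 and 10.9 CPM. Car10 was also lower in other GABAergic and excitatory nuclei, and Arntl in looser Drd1 SPN and excitatory nuclei. L3mbtl4 overlapped in all of these groups.

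The gene lists were read against the background of 0.0135% called, and 0 of their members were called by edgeR or DESeq2, with 0 to 3 members of each list at an unadjusted edgeR p under 0.05. Genes named below for an unadjusted p under 0.05 were picked after their values were seen.

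Dopamine, adenosine and cAMP signalling had 29 tested members with a median log2 fold change of -0.02, of which 13.8% lay higher and 17.2% lower in both CrT-KO libraries, against 14.7% and 18.9% of all tested genes. The calcineurin subunit Ppp3ca (-0.03, SE 0.12) and the phosphatase subunit Ppp2r2b (0.08, SE 0.12) were its most abundant. Of 13 phosphodiesterases the median was 0.11. Pde10a, which degrades cAMP and cGMP, was at 5495 and 5320 against 4812 and 4682 CPM (-0.16, SE 0.12), and Pde4a at 130 and 97.4 against 165 and 149 (0.51, SE 0.16, adjusted p = 0.705 by edgeR). Pde7b was at 0.11 (SE 0.14).

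Striatal receptors coupled to G proteins had a median of -0.07 over 20 tested members, with 5.00% higher and 35.0% lower in both CrT-KO libraries, beside 14.7% and 18.9% of all tested genes. The muscarinic receptor Chrm3 was at 507 and 550 CPM in the controls and 398 and 411 in CrT-KO (-0.37, SE 0.13, adjusted p = 0.808 by edgeR). Htr4, a serotonin receptor, was at 166 and 182 against 109 and 143 CPM (-0.47), and Cnr1, the CB1 cannabinoid receptor, at 109 and 123 against 96.0 and 77.8 (-0.39). The most abundant members, the glutamate receptors Grm5 and Grm7, differed by 0.06 and 0.09. Transcription factors of the striatum had a median of -0.02 over 17 members, with Meis2 at 0.10 and Foxp1 at -0.01 (SE 0.12 each). Neuropeptides and their processing enzymes had a median of -0.10 over 8 members, where Pcsk2 and Pam, which cut and amidate peptides, stood at 0.18 and 0.23.

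The synaptic lists gave no call. Genes of GABA synthesis, transport and receptors had the highest median, 0.17 over 15 members, with 7 higher and 1 lower in both CrT-KO libraries (46.7% and 6.67%, against 14.7% and 18.9% of all tested genes). Gabrg3, a GABA-A receptor subunit, was at 3004 and 2864 CPM in the controls and 3472 and 3053 in CrT-KO (0.18, SE 0.12, adjusted p = 0.945 by edgeR). Ionotropic glutamate receptors had a median of 0.04 over 15 members, with Gria1 at 0.16. Grin3a, an NMDA receptor subunit, had 47 and 28 against 23 and 11 UMIs (-0.93, adjusted p = 0.879 by edgeR). Synaptic adhesion and scaffold genes had a median of 0.01 over 32 members, with Dlg2 at -0.03 and Nrxn3 at 0.01. Lrrtm4, a postsynaptic adhesion protein, was at 3482 and 4086 CPM in the controls and 5386 and 5632 in CrT-KO (0.56, SE 0.13, adjusted p = 0.254 by edgeR).

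Ion channels and pumps gave no call. Sodium and calcium channel genes had a median of -0.08 over 27 members, with 3 higher and 10 lower in both CrT-KO libraries (11.1% and 37.0%, against 14.7% and 18.9% of all tested genes). Cacna1i, a T-type calcium channel, was at 142 and 102 CPM in the controls and 66.9 and 72.9 in CrT-KO (-0.77, SE 0.19, adjusted p = 0.275 by edgeR). The most abundant, Cacnb2 and Cacna2d3, stood at -0.12 and -0.14. Potassium channel genes had a median of -0.02 over 31 members, where Kcnip4, at 0.20, and Kcnd2, at 0.00, were the most abundant. Kcnn3, a small-conductance calcium-activated channel, was at 228 and 220 against 163 and 170 CPM (-0.41, adjusted p = 0.799 by edgeR). Kcnc2 was at 145 and 167 against 106 and 116 (-0.48), and it is also an interneuron marker, with 63.9% to 75.5% of its UMIs in 10 nuclei of each library. Pumps for sodium, potassium and calcium had a median of -0.17 over 8 members, 4 of them lower in both CrT-KO libraries and 0 higher (50.0% and 0%, against 18.9% and 14.7% of all tested genes). The plasma membrane calcium pumps Atp2b1 and Atp2b2 stood at -0.20 and -0.07.

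Both chaperone lists had medians below that of all tested genes. Endoplasmic reticulum chaperones stood at -0.37 over 11 tested of 19 measured, with 6 lower and 0 higher in both CrT-KO libraries (54.5% and 0%, against 18.9% and 14.7% of all tested genes). Canx, the most abundant, was at 0.04 and Sel1l at -0.27. Heat shock chaperones stood at -0.29 over 20 members, with 1 higher and 8 lower (5.00% and 40.0%, against 14.7% and 18.9% of all tested genes). Hspa8, the constitutive HSC70, had 23 and 29 against 14 and 8 UMIs (-1.0, SE 0.37, adjusted p = 0.816 by edgeR), and Hsp90ab1 had 42 and 54 against 39 and 12 (-0.69). Dnajc6 stood at 0.22 and Fkbp5 at -0.09. Many of these genes had few UMIs, and 8 of the 19 endoplasmic reticulum chaperones were below the filter.

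Energy genes gave no call either. Nuclear genes of the respiratory chain and ATP synthase had a median of -0.05 over 34 tested of 75 measured, with Ndufs4 at -0.08 and Ndufs1 at 0.04. Mitochondrially encoded genes stood at -0.02 over 9 members, with mt-Co1 at 0.10 and mt-Co3 at -0.02, and glycolysis and lactate genes at -0.04 over 14, with the glucose transporter Slc2a3 at 0.02 and the monocarboxylate transporter Slc16a7 at -0.34. The list of AMP kinase and adenylate kinases had a median of 0.11 over 12 members. The list also held Adk, which encodes adenosine kinase rather than an AMP kinase or adenylate kinase. Adk had 360 and 529 UMIs in the controls and 527 and 444 in CrT-KO (0.41, SE 0.15, adjusted p = 0.799 by edgeR). It was higher in both CrT-KO libraries in CPM, and Camkk2 stood at -0.27. Immediate-early genes had a median of -0.29 over 7 tested members, with Homer1 at -0.13 and Nr4a3 at 48.4 and 17.3 CPM in CrT-KO against 46.4 and 54.1, so 1 CrT-KO library set its value.

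**Figure D5:**
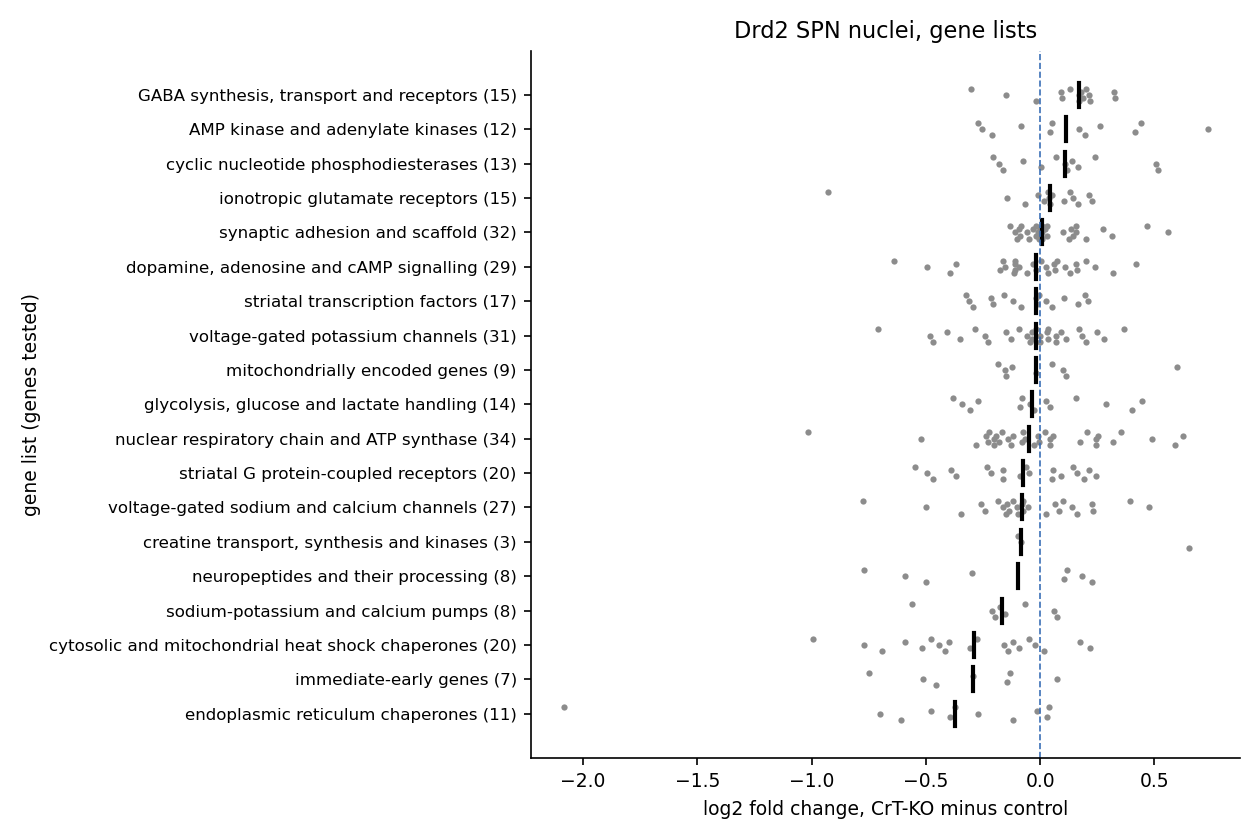
Log2 fold change (CrT-KO over control) in Drd2 SPN nuclei of the tested members of each gene list, 1 point per gene, with a black bar at the list median and a dashed line for all tested genes. Medians run from -0.37 for endoplasmic reticulum chaperones to 0.17 for GABA genes, around 0.00 for all tested genes.

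The same test in the comparison populations called 3 of 1495 genes in the 45 Drd1 SPN nuclei (0.201%) and 0 of 10772 in other GABAergic nuclei (0%, edgeR). In the latter 482 genes had an unadjusted p under 0.05 and DESeq2 also called 0. The 3 genes in Drd1 SPN nuclei, named after their values were seen, were Chrm3, Lrrtm4 and Dpp10, each with an edgeR adjusted p of 0.0941, and under the looser Drd1 rule 0 were called by edgeR with 278 at an unadjusted p under 0.05. Lrrtm4 and Dpp10 had log2 fold changes of 1.40 and 1.18 in the 45 Drd1 SPN nuclei, 0.40 and 0.35 in those of the looser rule and 0.56 and 0.55 in Drd2 SPN nuclei. These comparisons share the same 4 animals.

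Tests of the difference between populations named few genes. The genotype effect differed between Drd2 and Drd1 SPN nuclei for 1 of 5917 genes (0.0169%, edgeR interaction with the library as block), Chrm3, at 4.06 on the log2 scale (SE 0.76, adjusted p = 0.00364 by edgeR). It rested on few nuclei: Chrm3 had 17 and 14 UMIs in the control Drd1 SPN nuclei, of which 11 and 10 were in 1 nucleus of each library, and 1 UMI in each CrT-KO library. Under the looser Drd1 rule the counts were 66 and 77 against 128 and 145 and the difference reversed to -0.92 (adjusted p = 0.438 by edgeR).

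Against other GABAergic nuclei, the effect differed for 13 of 10200 genes (0.127%, edgeR), 6 with the higher and 7 with the lower log2 fold change in Drd2 SPN nuclei. Fgf13 led the first, with a fold change of 0.68 in Drd2 SPN nuclei and -0.23 in other GABAergic nuclei (difference 0.89, SE 0.16, adjusted p = 0.00101 by edgeR). In other GABAergic nuclei it was at 978 and 1268 against 988 and 918 CPM, so genotypes overlapped there. Dlg1, a synaptic scaffold, was at 311 and 407 CPM in the control Drd2 SPN nuclei and 452 and 537 in CrT-KO, and at 193 and 195 against 178 and 145 in other GABAergic nuclei (difference 0.72, adjusted p = 0.0162 by edgeR). Slc8a1, the sodium-calcium exchanger, was at 226 and 266 against 360 and 337 CPM in Drd2 SPN nuclei and overlapped between genotypes in other GABAergic nuclei (difference 0.67, adjusted p = 0.0249 by edgeR). Zfp804b and Npas3, a transcription factor, overlapped between genotypes in Drd2 SPN nuclei (differences 0.74 and 0.66).

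On the other side, L3mbtl4 differed by -1.35 (SE 0.29, adjusted p = 0.0162 by edgeR), with -1.15 in Drd2 SPN nuclei and 0.19 in other GABAergic nuclei, where genotypes overlapped. Ago4, an Argonaute protein of small RNA silencing, was at 117 and 85.2 CPM in the control Drd2 SPN nuclei and 44.4 and 67.9 in CrT-KO, and at 41.7 and 41.2 against 45.4 and 45.5 in other GABAergic nuclei (difference -1.0, adjusted p = 0.0420 by edgeR). Spon1, a secreted matrix protein, was at 63.1 and 59.2 against 40.3 and 27.2 CPM in Drd2 SPN nuclei and at 69.3 and 96.4 against 91.8 and 114 in other GABAergic nuclei (difference -1.07, adjusted p = 0.0420 by edgeR). Abi3bp, with 27 and 40 against 18 and 8 UMIs in Drd2 SPN nuclei, differed by -1.77 (adjusted p = 0.0826 by edgeR) and Zfp536, a zinc finger gene, by -0.92 (adjusted p = 0.0826 by edgeR). DESeq2 called 0 of the 13, with 62 of the 10200 genes at an unadjusted p under 0.05. Some of these genes moved alike in looser Drd1 SPN nuclei, where Spon1 was at 96.5 and 103 against 63.0 and 65.6 CPM. There Ago4 was also lower, and Dlg1 and Npas3 higher, in both CrT-KO libraries. The other genes named here against other GABAergic nuclei overlapped. Between Drd2 and looser Drd1 SPN nuclei the genotype effect differed for 0 of 6724 genes (edgeR).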

How the data were processed

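Nuclei were sequenced with a 10x Genomics 3' kit, and the authors aligned reads with Cell Ranger 3.1.0 to a custom pre-mRNA version of GRCm38 that counted the whole gene body. The deposited values are raw UMI counts per gene and nucleus, filtered by barcode only. Doublet removal and use of strand were not given in the sources used here. Members and gene lists were chosen with earlier results of these data known. UMI counts were summed per library and population (python 3.11.15), and sums were tested with edgeR 4.0.16 in R 4.3.3 (quasi-likelihood test, TMM, filterByExpr with a minimum count of 10 and total of 15, Benjamini-Hochberg, threshold 0.1). Genes of the membership rules were left out of the tests. CPM values are UMIs scaled to 1000000 UMIs of the population in that library, without TMM. DESeq2 1.42.0 was an alternative. The scripts were checked on simulated data. Libraries were compared by genotype, 2 against 2, 1 animal each, so p-values rest on 4 animals. Oligodendrocyte nuclei had at least 5 UMIs of oligodendrocyte markers and excitatory nuclei at least 2 of Slc17a7. Named genes were the creatine list, the rule genes, called genes, the 5 of lowest p in each direction, the 2 of highest mean CPM in each list, up to 5 called per direction in the tests of difference, and up to 10 per direction for the ratio of Drd2 to Drd1 SPN nuclei. Some genes that this rule names are not reported here.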

Additional observations from a re-analysis of the deposited data

Results flagged for a closer look

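For 14 genes the genotype effect in Drd2 SPN nuclei differed from that in a comparison population, by the edgeR interaction test named in the report. Chrm3 differed from Drd1 SPN nuclei by 4.06 on the log2 scale, with most of the control UMIs of the 45 Drd1 SPN nuclei in 1 nucleus per library, and by -0.92 under the looser Drd1 rule.

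Against other GABAergic nuclei, Fgf13 (0.89), Zfp804b (0.74), Dlg1 (0.72), Slc8a1 (0.67), Npas3 (0.66) and Ptprt (0.61) had the higher log2 fold change in Drd2 SPN nuclei. For Ptprt, a receptor tyrosine phosphatase gene, this was 0.27 in Drd2 SPN nuclei, where genotypes overlapped, and -0.36 in other GABAergic nuclei. Abi3bp (-1.77), L3mbtl4 (-1.35), Spon1 (-1.07), Ago4 (-1.0), Zfp536 (-0.92), Cep126 (-0.77) and Zfhx3 (-0.72) had the lower one. Zfhx3, a homeobox transcription factor, was at 483 and 486 CPM in the control and 419 and 401 in the CrT-KO Drd2 SPN nuclei, and at 98.3 and 66.8 against 115 and 112 in other GABAergic nuclei. Cep126 was at 135 and 146 against 110 and 92.7 CPM in Drd2 SPN nuclei and at 65.4 and 57.6 against 75.3 and 77.5 in other GABAergic nuclei. In looser Drd1 SPN nuclei Cep126 was also lower and Ptprt higher in both CrT-KO libraries, and Zfhx3 overlapped. Fgf13, Zfp804b, Slc8a1, Npas3, Ptprt and Zfp536 stood at 698 to 1821 CPM in other GABAergic nuclei and at 29.0 to 462 in Drd2 SPN nuclei. The part of interneuron transcripts in their differences was not tested. The genotype test in Drd2 SPN nuclei was also run without nuclei holding 10 or more interneuron UMIs. It called Npas3 among 15 genes, and none of the others in this list.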

How the results depend on the processing

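Counts of called genes moved with the setting, while Ano2 was called under every one run except the fit without nuclei holding oligodendrocyte UMIs, where Car10 was the 1 gene called. For Drd2 SPN nuclei the count of 1 became 8 (5 higher, 3 lower) without TMM, 22 with no filter, 46 with the replicate block, 2 with Scrublet doublets removed, 3 under the stricter rule, 9 under the looser rule for members, and 15 without nuclei holding 10 or more interneuron UMIs. Leaving out 1 library gave 5 to 68 (20 and 68 without control replicates 1 and 2, 5 and 16 without CrT-KO replicates 1 and 2), with the lone library assumed to vary like the other genotype. For Drd1 SPN nuclei the count of 3 became 0 at an adjusted p under 0.05, 5 with no filter, 0 with Scrublet doublets removed, 0 under the looser Drd1 rule and 4 to 26 with 1 library left out. Other GABAergic nuclei went from 0 to 38 with no filter, 8 with the replicate block and 1 to 102 with 1 library left out.

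Differences between Drd2 and Drd1 SPN nuclei went from 1 to 0 with DESeq2, with Scrublet doublets removed and under the looser Drd1 rule, where Chrm3 reversed to -0.92, and ranged from 0 to 14 with 1 library left out. Those against other GABAergic nuclei went from 13 to 7 at an adjusted p under 0.05, 5 without TMM, 0 with DESeq2 and 11 to 37 with 1 library left out. The lower share of members kept its direction in every setting run. The difference in median UMIs ranged from -187 to 1283 with 1 library left out and was reversed, at -187, without control replicate 1. Replicate numbers were not shown to pair animals: deviations of same-numbered libraries correlated at 0.015 over genes, with 2 pairs, and the replicate block is given as an alternative only. The causes were not tested. Depth limits genes such as Slc6a8, with at most 10 UMIs per library.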
